A study of Mus musculus with 9 samples.

Results

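C430049B03Rik, Mir22hg and Dleu2 are 3 long noncoding RNA (lncRNA) genes that adjoin or contain microRNA genes, and their RNA was followed in mouse lung during ventilator-induced lung injury (VILI). They were picked by gene ID with their values in all 3 groups already known, and they are 3 of the 27203 genes in the table, with 12 of its 60108 rows. The lungs came from male C57BL/6 mice aged 6 to 8 weeks, with 3 mice in each group. Control mice were intubated but not ventilated, VILI 0 hours mice were killed straight after 4 hours of mechanical ventilation with breaths of 20 ml/kg, and VILI 6 hours mice were killed 6 hours after the same ventilation. The study used ketamine and xylazine anaesthesia with pancuronium as muscle relaxant, and reported hypoventilation in control mice. It does not say at which time the sequenced control lungs were taken. Whole lung RNA was sequenced after ribosomal RNA was removed, so the values describe the mixed cells of the organ, and fewer cells of a type cannot be told apart from less RNA per cell. Levels are FPKM, fragment numbers scaled to transcript length and library size, which are per length and can be compared between genes. A row is 1 transcript, the table gives rows no transcript name, and the level of a gene is the sum of its rows.

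A microRNA is cut from a longer primary transcript by the nuclear enzyme Drosha with its partner Dgcr8, carried to the cytoplasm by exportin 5, trimmed by Dicer and loaded onto an Argonaute protein. The loaded strand finds messenger RNAs mainly through its seed, bases 2 to 8, and usually lowers their stability or translation. Host genes are transcripts from which such hairpins are cut, and miR-15, miR-16, miR-322 (the mouse counterpart of human miR-424) and miR-503 are best known for holding back the cell cycle, while miR-22 is known from work on tumour suppression, the heart and blood cells. The libraries here measured long RNA, so they give the level of the host transcripts and not of the mature microRNAs.

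The mature strands that these loci encode are shown because they sort the 3 loci into seed families. RefSeq (GRCm38.p6) holds 20 mature entries for the 10 hairpins annotated at the 3 loci. In the 8 printed here the capitals mark the seed.
miR-22-3p: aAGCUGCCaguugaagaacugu
miR-15a-5p: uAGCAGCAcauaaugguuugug
miR-16-5p: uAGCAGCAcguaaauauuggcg
miR-322-5p: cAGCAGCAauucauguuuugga
miR-503-5p: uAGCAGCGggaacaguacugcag
miR-351-5p: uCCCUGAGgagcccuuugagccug
miR-542-3p: uGUGACAGauugauaacugaaa
miR-450a-5p: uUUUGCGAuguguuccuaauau
The strands miR-15a-5p and miR-16-5p from the Dleu2 locus and miR-322-5p from beside C430049B03Rik carry the same seed, AGCAGCA, which 10 of the 1679 mature names in RefSeq share. The seed of miR-503-5p matches it at 6 of 7 bases. Over 22 aligned positions miR-15a-5p and miR-16-5p are identical at 16, miR-15a-5p and miR-322-5p at 15, and miR-16-5p and miR-322-5p at 12. The seed of miR-22-3p belongs to no other mature name in the table. The other strands of the X chromosome cluster have other seeds, and that of miR-351-5p is the seed of the miR-125 family.

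The 3 genes stand in different relations to their microRNAs (GRCm38, GENCODE M21). Mir22hg lies on the forward strand at chr11:75461539-75466676 with 2 annotated transcripts, and the Mir22 hairpin at chr11:75463716-75463810 is within exon 2 of both. Dleu2 lies on the reverse strand at chr14:61602839-61682373 with 15 annotated transcripts. The Mir15a and Mir16-1 hairpins are inside the span of 8 of them, within an exon of none, and 1 transcript has an exon that touches the edge of Mir16-1. C430049B03Rik lies on the reverse strand at chrX:53055046-53057190 with 4 annotated transcripts, and the label of a host goes against this annotation. None of its transcripts spans a hairpin and it carries no host tag, whereas Mir22hg and Dleu2 do. On its strand, Mir322 begins 696 bases beyond its annotated 3′ end, Mir503 991 bases, Mir351 1692 bases and Mir542 5558 bases beyond it, and the 3 Mir450 hairpins lie 6678 to 6967 bases beyond it.

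**Figure D1:**
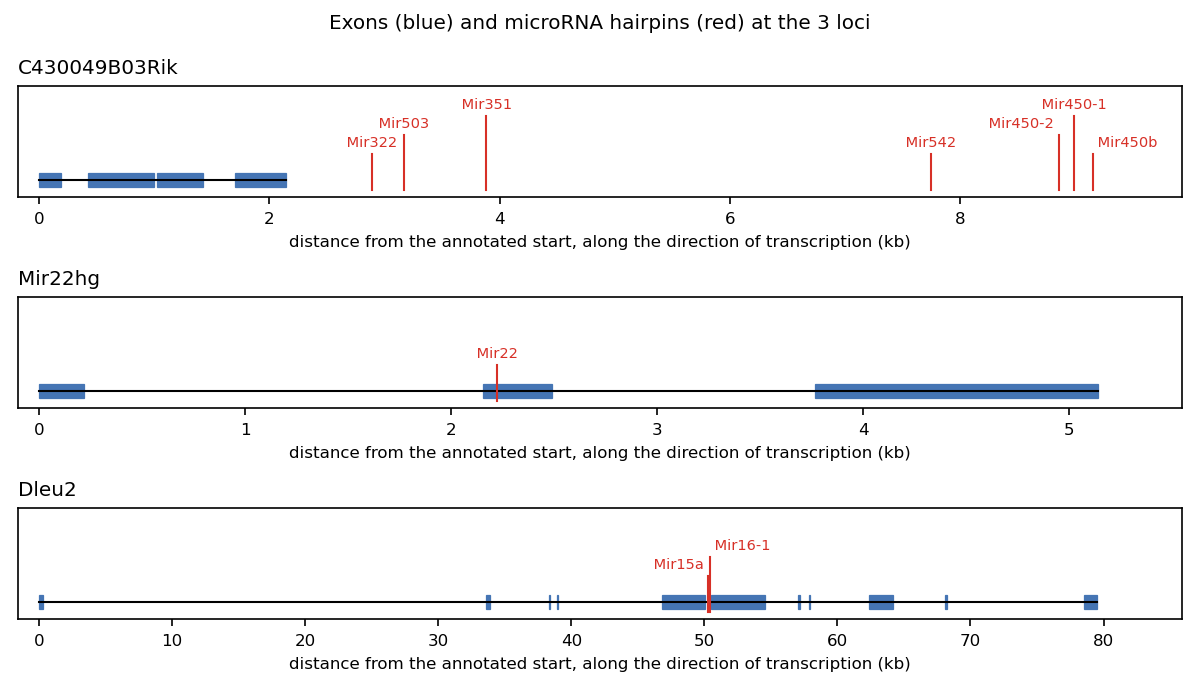
Maps of C430049B03Rik, Mir22hg and Dleu2, with distance from the annotated start along the direction of transcription on the horizontal axis (kb), exons of all transcripts in blue and microRNA hairpins in red. The hairpin is inside an exon of Mir22hg, both hairpins of Dleu2 lie between exons of most transcripts, and the 7 hairpins beside C430049B03Rik all lie beyond its end.

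In the levels of C430049B03Rik and Mir22hg, VILI 6 hours replicate 1 stood apart from the other 2 libraries of its group and near control, and their changes at 6 hours are given with and without it. Column sums of the table were 366360 to 388459 FPKM, and sequencing depth is not held in it. Lung markers were present in every library, with the 6 alveolar type 2 genes summing to 12533 to 15553 FPKM. Summed neutrophil markers (10 genes) were 53.7 to 65.8 FPKM in control, 575 to 1035 FPKM at VILI 0 hours and 495 to 2121 FPKM at VILI 6 hours, with VILI 6 hours replicate 1 the lowest ventilated library but far from control. Summed B cell markers (6 genes) were 50.3 to 65.3 FPKM in control, 20.4 to 63.3 FPKM at VILI 0 hours and 14.6 to 39.1 FPKM at VILI 6 hours, where replicate 1 was the lowest of all 9 libraries. That library also had the lowest T cell sum, 9.59 FPKM against 18.8 to 25.6 FPKM in control, and the highest alveolar macrophage sum, 574 FPKM against 169 to 227 FPKM. Summed proliferation markers (8 genes) were 14.0 to 23.8 FPKM in control, 11.9 to 17.3 FPKM at VILI 0 hours and 12.6, 26.6 and 37.9 FPKM at VILI 6 hours. Summed endothelial markers (7 genes) were 769 to 816, 812 to 931 and 673 to 881 FPKM in the 3 groups, fibroblast markers (6 genes) 583 to 698, 501 to 601 and 485 to 654 FPKM, and alveolar type 1 markers (5 genes) 1020 to 1072, 1057 to 1321 and 940 to 1371 FPKM. At 6 hours 4 of the 7 endothelial, 3 of the 6 fibroblast, 5 of the 6 B cell and 1 of the 6 alveolar type 2 markers were lower than control at an unadjusted p under 0.05 in limma, where 12.2% of all genes were. Higher were 9 of the 10 neutrophil, 2 of the 5 alveolar type 1, 1 of the 5 alveolar macrophage and 1 of the 8 proliferation markers, where 8.17% of all genes were, and no T cell marker (of 6) passed in either direction. No marker of these lists was at 0 in all libraries, and their part in the levels below, cell cycle and endothelial genes included, was not tested.

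C430049B03Rik was lower after ventilation. Its summed level was 13.0, 18.7 and 14.6 FPKM in the 3 control libraries, 6.05, 8.6 and 6.01 FPKM at VILI 0 hours and 12.1, 4.11 and 1.94 FPKM at VILI 6 hours. All 6 ventilated libraries lay below all 3 control libraries, and at 6 hours replicate 1 lay just under the control range while replicate 3 held the lowest level of all. The group means were 15.4 ± 2.95, 6.89 ± 1.49 and 6.06 ± 5.36 FPKM (SD, n = 3 each). On the log2(FPKM + 0.1) scale VILI 0 hours was below control by a log2 fold change of -1.15 (SE 0.52) and VILI 6 hours by -1.70 (SE 0.52). The levels of the VILI groups overlapped, and their difference was -0.55 (SE 0.52). Without VILI 6 hours replicate 1, the 6 hours value against control was -2.39 (SE 0.30) and that against VILI 0 hours was -1.23 (SE 0.30). Without VILI 6 hours replicate 3 they were -1.10 (SE 0.39) and 0.06 (SE 0.39), so the sign of the difference between the VILI groups rested on that library. No p-value is given for this gene, Mir22hg or Dleu2, because their levels in these libraries were known when they were chosen. Of all 19378 genes tested, 21.6% lay lower without overlap at VILI 0 hours and 15% at VILI 6 hours.

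Mir22hg was high in some ventilated libraries and at the control level in others. Its single row was at 13.8, 13.2 and 14.7 FPKM in control, at 29.7, 12.6 and 15.7 FPKM at VILI 0 hours and at 11.6, 33.7 and 39.1 FPKM at VILI 6 hours. The 3 control libraries were close together, whereas VILI 0 hours replicate 1 and VILI 6 hours replicates 2 and 3 were above all others, and the groups overlapped in every comparison. The group means were 13.9 ± 0.73, 19.4 ± 9.10 and 28.2 ± 14.6 FPKM (SD, n = 3 each). The log2 fold change against control was 0.38 (SE 0.44) at 0 hours and 0.84 (SE 0.44) at 6 hours. The former value rested on 1 library and was 0.02 (SE 0.45) without VILI 0 hours replicate 1. The latter was 1.38 (SE 0.29) without VILI 6 hours replicate 1 and 0.51 (SE 0.45) without replicate 3. Mir22hg shares 206 of its 1924 exon bases, or 10.7%, with the protein-coding gene Tlcd2 on the same strand, and reads from the shared stretch cannot be told apart. The level of Tlcd2 was 2.25 to 2.56 FPKM in control, 0.81, 1.48 and 1.52 FPKM at VILI 0 hours and 1.33, 1.29 and 2.27 FPKM at VILI 6 hours. The part of the shared stretch in the Mir22hg level was not tested.

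Dleu2 held the highest control level of the 3 and the smallest log2 fold changes against control. Its summed level was 31.1, 33.7 and 34.4 FPKM in control, 24.2, 28.8 and 34.2 FPKM at VILI 0 hours and 32, 24.5 and 28.3 FPKM at VILI 6 hours. The groups overlapped in every comparison. The group means were 33.1 ± 1.75, 29.1 ± 5.01 and 28.3 ± 3.76 FPKM (SD, n = 3 each). The log2 fold change was -0.20 (SE 0.14) at 0 hours and -0.23 (SE 0.14) at 6 hours, and that between the VILI groups was -0.03 (SE 0.14).

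**Figure D2:**
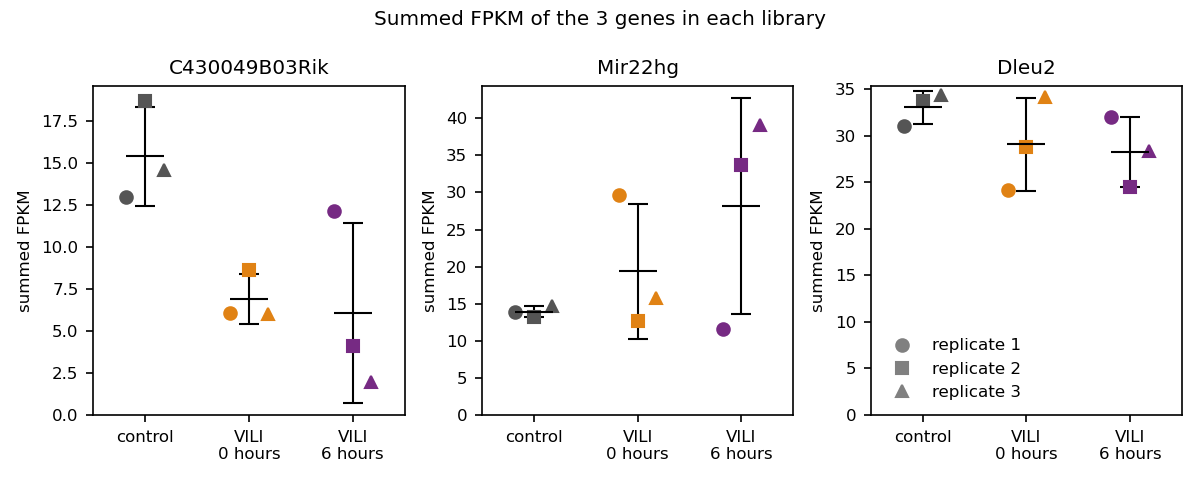
Summed FPKM (vertical axis, from 0) of C430049B03Rik, Mir22hg and Dleu2 in the 9 libraries, by group and replicate (shapes), with the mean and SD of each group of 3 as bars. The 6 ventilated libraries of C430049B03Rik all lie below control, VILI 6 hours replicate 1 lies near control for C430049B03Rik and Mir22hg, and the Dleu2 groups overlap.

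In control the order was Dleu2 first, followed by C430049B03Rik and Mir22hg, whose ranges overlapped. Straight after ventilation, at VILI 0 hours, the ranges of Dleu2 and Mir22hg overlapped and C430049B03Rik lay below both. At VILI 6 hours Mir22hg spanned the whole range of Dleu2, and C430049B03Rik overlapped only with its lowest library.

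The rows of C430049B03Rik did not move alike. Row 1, the most abundant in control, was at 8.58, 10.5 and 10.2 FPKM in control, 2.91, 4.34 and 3.57 FPKM at VILI 0 hours and 6.45, 1.13 and 0.24 FPKM at VILI 6 hours. Row 2 was at 3.63, 4.23 and 3.23 FPKM in control, 1.56, 1.82 and 1.02 FPKM at VILI 0 hours and 2.94, 0.71 and 0.39 FPKM at VILI 6 hours. Both rows lay below control without overlap at both times. The log2 fold changes of row 1 were -1.42 (SE 0.88) at 0 hours and -2.81 (SE 0.88) at 6 hours, and those of row 2 were -1.30 (SE 0.60) and -1.82 (SE 0.60). At 6 hours they were -3.92 (SE 0.50) and -2.58 (SE 0.33) without replicate 1 and -1.79 (SE 0.62) and -1.27 (SE 0.54) without replicate 3. Row 3 was at 0.76, 3.93 and 1.15 FPKM in control, 1.58, 2.44 and 1.42 FPKM at VILI 0 hours and 2.73, 2.26 and 1.30 FPKM at VILI 6 hours, with every ventilated library inside the control range. Its log2 fold changes were 0.19 (SE 0.56) and 0.37 (SE 0.56), and both were below 0 without control replicate 1, at -0.27 and -0.09. The share of row 3 in the sum was 5.88 to 21.0% in control, 23.6 to 28.3% at VILI 0 hours and 22.6%, 55.1% and 67.3% at VILI 6 hours. Row 1 made up 66.1%, 56.3% and 69.9% of the sum in control and 53.2%, 27.6% and 12.4% at VILI 6 hours. Rows of 1 gene share exons and therefore reads, and how the fragments were divided among them was set by the authors' estimation.

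Among the 8 rows of Dleu2, row 5 was the most abundant in every library, at 9.87 to 15.6 FPKM and 39.4 to 45.4% of the sum. It was at 13.1 to 15.6 FPKM in control, 11.0 to 13.8 FPKM at VILI 0 hours and 9.87 to 13.7 FPKM at VILI 6 hours. Row 6 ran against the sum at the later time, with 2.32, 1.49 and 1.03 FPKM in control, 1.27, 0.54 and 1.98 FPKM at VILI 0 hours and 2.1, 3.91 and 4.06 FPKM at VILI 6 hours. The 3 libraries at 6 hours all lay above the 3 at 0 hours, and replicate 1 was within the control range. The log2 fold change of row 6 was 1.03 (SE 0.49) against control and 1.44 (SE 0.49) against VILI 0 hours (1.33 and 1.74 without replicate 1, SE 0.52), and its share of the sum was 2.98 to 7.45% in control and 6.58 to 16% at VILI 6 hours. Row 7, at 0.92 to 2.55 FPKM in control, also lay higher at 6 hours (1.55 to 1.72 FPKM) than at 0 hours (0.52 to 1.5 FPKM). Row 1 was at 1.86 to 3.15 FPKM in control and at 1.63 to 1.79 FPKM at VILI 0 hours, below control without overlap. Row 8 was at 2.49 to 2.77 FPKM in control and 1.97 to 2.31 FPKM at VILI 6 hours, again without overlap, while VILI 0 hours replicate 3 stood at 7.0 FPKM, the other two libraries of that group being at 1.87 and 2.41 FPKM. Rows 2, 3 and 4 overlapped between all groups, with means of 0.52, 6.43 and 2.0 FPKM over the 9 libraries.

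**Figure D3:**
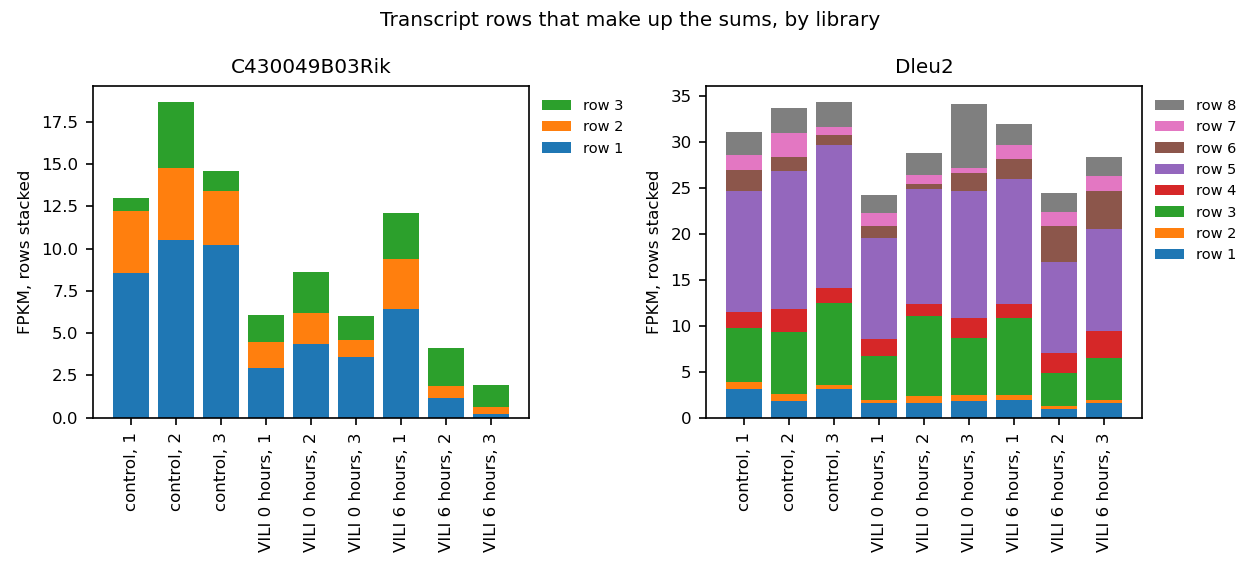
FPKM of each transcript row of C430049B03Rik (3 rows) and Dleu2 (8 rows), stacked so that the bar height is the sum (vertical axis, from 0), for each of the 9 libraries on the horizontal axis. Rows 1 and 2 of C430049B03Rik shrink in VILI 6 hours replicates 2 and 3 while row 3 does not, and row 6 of Dleu2 is thickest in those libraries.

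Over the 12 rows, 3 lay below control without overlap at VILI 0 hours, where 15.6% of all 37300 rows tested did, and 3 at VILI 6 hours, where 11.2% did. Against VILI 0 hours, 2 rows lay higher at VILI 6 hours, where 6.09% of all rows did. The rows belong to genes chosen on these libraries, so nothing is read from these counts.

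The levels of Mir22hg and C430049B03Rik ran in opposite directions across libraries. Over the 9 libraries Pearson's r of the log2 levels was -0.86 (Spearman's rho -0.72), and -0.85 after the group means were taken out. The 3 libraries with the highest Mir22hg levels, VILI 6 hours replicates 2 and 3 and VILI 0 hours replicate 1, had C430049B03Rik at 4.11, 1.94 and 6.05 FPKM, although VILI 0 hours replicate 3 had a like C430049B03Rik level of 6.01 FPKM with Mir22hg at 15.7 FPKM. The correlation of Mir22hg with Dleu2 was -0.75 (rho -0.45, and -0.69 without the group means) and that of C430049B03Rik with Dleu2 was 0.59 (rho 0.60, and 0.34 without the group means). These values describe 9 libraries that share their groups and scaling. Within groups the levels of C430049B03Rik and Mir22hg spread most at VILI 6 hours (SD 5.36 and 14.6 FPKM). There C430049B03Rik was at 12.1, 4.11 and 1.94 FPKM in replicates 1, 2 and 3, and Mir22hg at 11.6, 33.7 and 39.1 FPKM. The correlations were not computed with a library left out.

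**Figure D4:**
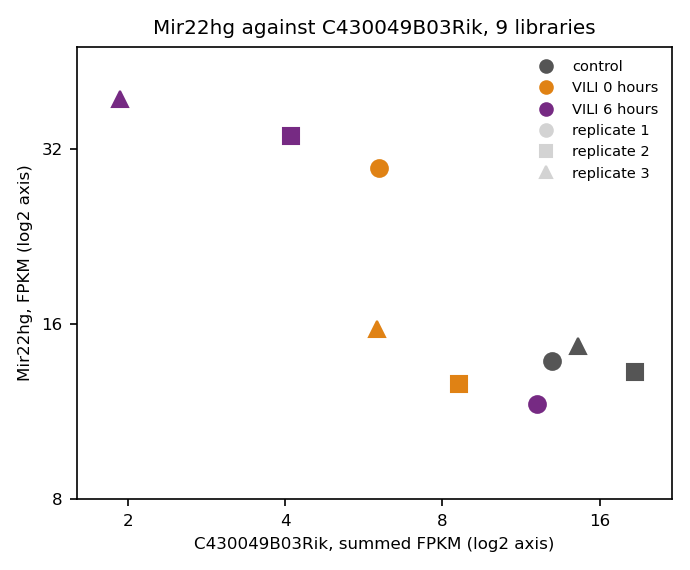
FPKM of Mir22hg (vertical axis) against summed FPKM of C430049B03Rik (horizontal axis), both on log2 axes, for the 9 libraries by group (colours) and replicate (shapes). VILI 6 hours replicates 2 and 3 and VILI 0 hours replicate 1 lie at the upper left, and VILI 6 hours replicate 1 lies with the control libraries at the lower right.

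The genes with the most similar pattern were sought among 14105 genes with a mean of at least 1 FPKM, by Pearson's r of log2 levels over the 9 libraries. For C430049B03Rik they were Gm45332 (r 0.99), Pcdh12 (0.99), an endothelial protocadherin, Arvcf (0.99), a catenin of cell junctions, Cd55 (0.99), which restrains complement, and D430019H16Rik (0.99). Pcdh12 was at 16.5 to 23.0 FPKM in control, 7.11 to 12.0 FPKM at VILI 0 hours and 16.2, 5.84 and 3.17 FPKM at VILI 6 hours, with the same library near control. For Mir22hg they were Pde9a (r 0.995), a cyclic GMP phosphodiesterase, Itga2b (0.98), the platelet integrin alpha chain, Wdr26 (0.98), Il20rb (0.98), a cytokine receptor chain, and Rapgef5 (0.97). Pde9a was at 15.7 to 17.2 FPKM in control, 30.0, 16.8 and 18.9 FPKM at VILI 0 hours and 15.4, 32.9 and 38.3 FPKM at VILI 6 hours, so the same 3 libraries were high. For Dleu2 they were Gm45844 (r 0.95), Prim1 (0.95), a DNA primase subunit, Cd2ap (0.94), 1700066M21Rik (0.94) and Bod1l (0.93).

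Genes of the same pathway were then compared between groups with limma on log2(FPKM + 0.1), over 98 related genes in 7 lists that the choice of the 3 genes did not use. The lists were drawn up with earlier results of these data known, so their counts beside the shares of all genes are descriptions. A gene is called here where p before adjustment was under 0.05, the cut-off that the study used, and adjusted p-values are Benjamini-Hochberg values over all 19378 genes. At VILI 0 hours 6 of the 98 rose and 19 fell, where 6.81% of all genes rose and 9.35% fell. At VILI 6 hours 5 rose and 19 fell, where 8.17% of all genes rose and 12.2% fell, and with libraries centred on their median 9 rose and 8 fell, beside 11.7% and 8.46% of all genes. Centring shifted all log2 fold changes against control by 0.11 at 0 hours and 0.13 at 6 hours and those between the VILI groups by 0.01, and at 0 hours it gave 8 up and 12 down, beside 10.03% and 6.36% of all genes. Between the VILI groups 8 were higher and 4 lower at 6 hours, where 5.06% and 4.94% of all genes were. The count at 6 hours against control was 44 without VILI 6 hours replicate 1 (14 up, 30 down, where 12.8% and 26% of all genes were called), 14 when control replicate 2 was left out, 12 when control replicate 3 was and 15 when VILI 6 hours replicate 3 was. In these last 3 fits 13.1%, 13.3% and 14.1% of all genes were called in either direction, against 20.4% with all libraries. The count at 0 hours was 15 without control replicate 1 and 15 without control replicate 2, where 10.8% and 10.2% of all genes were called, against 16.2% with all libraries. Between the VILI groups it was 21 when VILI 6 hours replicate 1 was left out, where 22.4% of all genes were called, against 10% with all libraries. After adjustment 1 of the 98 passed in limma in any comparison, Esr1 at VILI 6 hours, where 0.702% of all genes passed, against 0.284% at VILI 0 hours and 0% between the VILI groups. Of the 61 calls in these lists, 23 held with each library left out in turn and 38 were lost without at least 1 library. Those that held were H19, Mir99ahg, Mest, Ccnd2 and Esr1 at both times, Ago3, Cdkn1a, Max, Slc43a2 and Tlcd2 at 0 hours, Cdk6, Lin28a and Myc at 6 hours, and Ago2, Ccnd1, E2f3, Huwe1 and Lpp between the VILI groups.

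**Figure D5:**
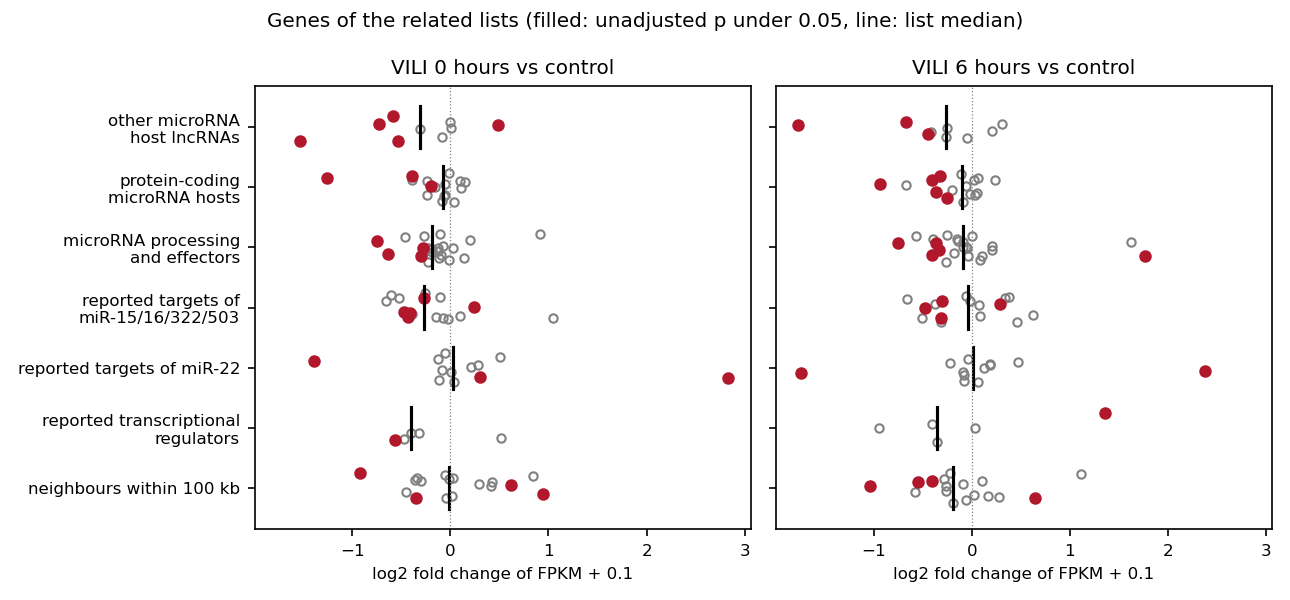
Log2 fold change of FPKM + 0.1 (horizontal axis) at VILI 0 hours and VILI 6 hours against control for each gene of the 7 related lists (rows of points), filled where the unadjusted p from limma was under 0.05, with the list median as a vertical line. H19, at the far left of the first list, Mest in the second, and Esr1 and Cdkn1a among the reported targets of miR-22 lie farthest from 0 among the filled points of their lists.

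Of 22 other microRNA host lncRNAs listed, 9 were in the table. At VILI 0 hours 4 fell and 1 rose, where 9.35% of all genes fell and 6.81% rose, and at VILI 6 hours 3 fell, where 12.2% did. After centring 4 were down and 1 up at 0 hours, beside 6.36% and 10.03% of all genes, and 2 were down at 6 hours, beside 8.46%. Without control replicate 2 the calls at 0 hours were 0 up and 2 down, where 10.2% of all genes were called in either direction. The list median was -0.31 at 0 hours and -0.26 at 6 hours, against -0.07 and -0.09 over all genes. H19, the imprinted host of miR-675, was at 0.57, 1.15 and 1.03 FPKM in control, 0.19, 0.24 and 0.30 FPKM at VILI 0 hours and 0.38, 0.14 and 0.11 FPKM at VILI 6 hours. All ventilated libraries lay below control, with log2 fold changes of -1.54 (SE 0.40, adjusted p = 0.11) and -1.77 (SE 0.40, adjusted p = 0.074). Mir99ahg, host of miR-99a, let-7c and miR-125b, fell from 9.47 ± 0.78 FPKM in control to 5.70 ± 0.82 at 0 hours and 6.04 ± 1.77 at 6 hours (SD, n = 3 each). Carmn, the smooth muscle RNA beside miR-143 and miR-145, fell from 22.5 ± 2.99 FPKM to 15.5 ± 1.41 and 16.8 ± 4.29 (SD, n = 3 each), and its 6 hours call was lost after centring. Its log2 fold change at 6 hours was -0.45, and -0.21 (SE 0.13, not called) without VILI 6 hours replicate 3. Ftx, an X-linked host near Xist, fell at 0 hours with a log2 fold change of -0.59 (SE 0.20). Mir142hg, whose microRNA is made in blood cells, rose at 0 hours from 4.74 ± 1.33 to 6.53 ± 0.46 FPKM (SD, n = 3 each), with a log2 fold change of 0.49 that was 0.29 (SE 0.18, not called) without control replicate 3. Between the VILI groups no gene of the list was called by limma at an unadjusted p under 0.05, and A330023F24Rik had the largest log2 fold change, 0.30 (SE 0.20).

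Of the protein-coding host genes, 16 of 17 were tested. Mest, Lpp and Huwe1 fell at VILI 0 hours, and at VILI 6 hours Mest, Evl, Mcm7, Smc4 and Pank2 fell, of which only the calls of Mest remained after centring at both times. The 0 hours value of Lpp was -0.39, and -0.24 (SE 0.12, not called) without VILI 0 hours replicate 1, and the 6 hours value of Pank2 was -0.36, and -0.23 (SE 0.15, not called) without VILI 6 hours replicate 3. Mest, the imprinted host of miR-335, was at 6.08, 8.85 and 6.98 FPKM in control, 2.94, 3.59 and 2.45 FPKM at VILI 0 hours and 4.28, 4.28 and 2.81 FPKM at VILI 6 hours. Its log2 fold changes were -1.26 (SE 0.22, adjusted p = 0.063) and -0.94 (SE 0.22, adjusted p = 0.087). Smc4, a condensin subunit whose introns hold miR-15b and a further copy of miR-16, was at 20.3, 20.4 and 21.9 FPKM in control, 21.8, 23.0 and 19.7 FPKM at VILI 0 hours and 15.7, 18.5 and 18.4 FPKM at VILI 6 hours. The libraries at 6 hours lay below both other groups, with a log2 fold change of -0.25 (SE 0.11, adjusted p = 0.22) against control, a call that was also lost without VILI 6 hours replicate 1. Against VILI 0 hours Smc4 was lower at 6 hours by 0.29 (SE 0.11) on the log2 scale, a call lost after centring, where the value was -0.28 (SE 0.14), and without VILI 6 hours replicate 1, where it was -0.21 (SE 0.10). Lpp and Huwe1 were higher at 6 hours than at 0 hours, by 0.44 (SE 0.14) and 0.24 (SE 0.08), and the call of Huwe1 was lost after centring, where its value was 0.25 (SE 0.11).

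Of the microRNA processing and effector genes, 23 of 24 were tested. At VILI 0 hours 4 fell (1 up and 2 down after centring) and at VILI 6 hours 1 rose and 4 fell (3 up and 1 down after centring). Of all genes 6.81% rose and 9.35% fell at 0 hours, and 8.17% rose and 12.2% fell at 6 hours. After centring these shares were 10.03% and 6.36% at 0 hours and 11.7% and 8.46% at 6 hours. Ago3, an Argonaute, fell from 8.52 ± 0.15 FPKM in control to 5.08 ± 0.88 at 0 hours and 6.62 ± 0.73 at 6 hours (SD, n = 3 each), with adjusted p-values of 0.074 and 0.22, and its 6 hours call was lost after centring. Ago1 was at 23.3 to 26.0 FPKM in control, 14.0 to 19 FPKM at VILI 0 hours and 22, 14.4 and 9.44 FPKM at VILI 6 hours, with a log2 fold change of -0.63 (SE 0.26) and -0.75 (SE 0.26). The latter was -1.05 (SE 0.19) without VILI 6 hours replicate 1 and -0.44 (SE 0.20), no longer called, without replicate 3. Ago2, the Argonaute that can cut its target, was higher at 6 hours (17.1 ± 1.01 FPKM) than at 0 hours (13.0 ± 0.68 FPKM; SD, n = 3 each), with an adjusted p of 0.28. Between these groups Ago3 and Ran, the GTPase that exportins depend on, were also called higher at 6 hours and Tnrc6c, an Argonaute partner, lower, with log2 fold changes of 0.39 (SE 0.15), 0.28 (SE 0.10) and -0.29 (SE 0.10). Without VILI 6 hours replicate 1, where Ran was highest, its value was 0.17 (SE 0.08) and was not called, and that of Ago3 was 0.24 (SE 0.13), not called, without VILI 0 hours replicate 1. Xpo5, which encodes exportin 5, fell at 0 hours by 0.28 (SE 0.11) on the log2 scale, and Dis3l2, a nuclease of uridylated RNA, by 0.30 (SE 0.12), neither after centring. Dis3l2 and Prkra, a Dicer partner, were called lower at 6 hours with log2 fold changes of -0.33 (SE 0.12) and -0.41 (SE 0.18), again not after centring, and the value of Prkra was -0.21 (SE 0.14, not called) without VILI 6 hours replicate 3. Lin28a, an inhibitor of let-7 processing, was called higher at 6 hours, at 0.46, 0.13 and 0.64 FPKM against 0.01 to 0.06 FPKM in control. Drosha was at 12.4 to 13.7 FPKM in control, 9.35 to 12.0 FPKM at VILI 0 hours, below control without overlap, and 8.53 to 14.5 FPKM at VILI 6 hours. Dicer1 was at 12.6 to 13.8, 11.1 to 13.8 and 12.2 to 12.8 FPKM in the 3 groups, and neither gene was called by limma in any comparison. Dgcr8 was listed at 0 in control replicate 3 and VILI 0 hours replicate 1 and at 3.19 to 5.18 FPKM elsewhere, so no fold is given.

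The 16 reported targets of the miR-15, miR-16, miR-322 and miR-503 group were all tested. At VILI 0 hours 1 rose and 4 fell, and at VILI 6 hours 1 rose and 3 fell (1 up with 3 and 1 down after centring). The shares of all genes were 6.81% up and 9.35% down at 0 hours, and 8.17% up and 12.2% down at 6 hours. After centring they were 10.03% and 6.36% at 0 hours and 11.7% and 8.46% at 6 hours. Ccnd2, cyclin D2, was at 47.7 to 51.4 FPKM in control, 35.6 to 38.8 FPKM at VILI 0 hours and 32.4 to 41.0 FPKM at VILI 6 hours, with log2 fold changes of -0.41 (SE 0.10, adjusted p = 0.105) and -0.48 (SE 0.10, adjusted p = 0.070). Ccnd1, cyclin D1, fell at 0 hours from 45.2 ± 3.61 to 33.5 ± 2.45 FPKM (SD, n = 3 each) and was higher at 6 hours than at 0 hours by 0.51 (SE 0.17), at 63.1, 44.3 and 38.7 FPKM, with 0.31 (SE 0.11) without VILI 6 hours replicate 1. Cdk6, a partner of D cyclins, fell at both times by 0.26 and 0.30 (SE 0.09) on the log2 scale, neither after centring. Vegfa, the endothelial growth factor, fell at 0 hours from 294 ± 15.1 to 212 ± 1.28 FPKM (SD, n = 3 each). Igf1r rose at both times, with log2 fold changes of 0.24 and 0.29 (SE 0.10). Its 0 hours value was 0.19 (SE 0.12, not called) without VILI 0 hours replicate 3. Its 6 hours value was 0.22 (SE 0.11, not called) without VILI 6 hours replicate 2. The 0 hours calls of Ccnd1, Cdk6 and Vegfa were also lost without control replicate 1, where Vegfa was at -0.43 (SE 0.22). The list median was -0.26 at 0 hours and -0.04 at 6 hours, against -0.07 and -0.09 over all genes. Smurf2, a ubiquitin ligase, fell at 6 hours by 0.32 (SE 0.14) on the log2 scale, not after centring and not without VILI 6 hours replicate 3, where the value was -0.19 (SE 0.13). Ccne1, cyclin E1, was higher at 6 hours (0.57 to 0.98 FPKM) than at 0 hours (0.18 to 0.49 FPKM), with a log2 fold change of 0.99 that was 0.65 (SE 0.34, not called) without VILI 0 hours replicate 3. A match to the seed AGCAGCA (the DNA letters TGCTGCT, on the sense strand) was in the longest annotated 3′ UTR of 15 of these 16 genes, Smurf2 being without, and of 20.3% of 21037 genes with a 3′ UTR. The genes were listed as reported targets, so a high share follows from the choice of the list. The length of the 3′ UTR was not matched, and nothing about targeting is read from this share.

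The 12 reported targets of miR-22 were all tested. Cdkn1a and Max rose and Esr1 fell at VILI 0 hours, and at VILI 6 hours Cdkn1a rose and Esr1 fell, with all these calls kept after centring. Esr1, the estrogen receptor alpha, was at 2.17, 1.69 and 1.32 FPKM in control, 0.60, 0.73 and 0.45 FPKM at VILI 0 hours and 0.60, 0.37 and 0.37 FPKM at VILI 6 hours. No ventilated library reached the control range, and the log2 fold changes were -1.39 (SE 0.29, adjusted p = 0.076) and -1.74 (SE 0.29, adjusted p = 0.035). Cdkn1a, the cell cycle inhibitor p21, was at 14.2, 19 and 15.6 FPKM in control, 207, 43.0 and 173 FPKM at VILI 0 hours and 22.4, 133 and 202 FPKM at VILI 6 hours, with log2 fold changes of 2.83 (SE 0.79, adjusted p = 0.135) and 2.38 (SE 0.79, adjusted p = 0.156). Here too VILI 6 hours replicate 1 lay nearest control, and the 6 hours value was 3.33 (SE 0.57) without it. The 0 hours value was 3.54 (SE 0.76) without VILI 0 hours replicate 2. The 6 hours call of Cdkn1a was lost without replicate 2, at 2.05 (SE 0.91), and without replicate 3, at 1.75 (SE 0.80). Without replicate 1, 6 of the 12 targets were called higher at 6 hours and 1 lower, where 12.8% and 26% of all genes were, and without any other single library 0 or 1 was called higher. Sirt1 was lower at 6 hours than at 0 hours by 0.50 (SE 0.18) on the log2 scale, with -0.30 (SE 0.15, not called) without VILI 6 hours replicate 2. Max, a partner of Myc, rose at 0 hours from 23.7 ± 1.12 to 29.3 ± 1.45 FPKM (SD, n = 3 each). A match to the seed AGCUGCC, which reads GGCAGCT in the DNA letters of the target, was in the 3′ UTR of 10 of the 12, Hif1a and Mycbp being without, and of 12.8% of all genes. This list too was chosen as reported targets, so nothing about targeting is read from the share.

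Genes whose 3′ UTR held a seed match had medians close to those without one. The median log2 fold change at VILI 6 hours was -0.09 for 3552 genes with a match to AGCAGCA and -0.09 for 11606 without. For the miR-22-3p seed it was -0.09 for 2267 genes with a match and -0.09 for 12891 without. The medians at VILI 0 hours were -0.07 and -0.06 for AGCAGCA and -0.08 and -0.06 for AGCUGCC, and 10.4% of genes with a match to AGCAGCA fell against 7.76% of those without, with 10.3% against 8.06% for AGCUGCC. The shares that fell at VILI 6 hours were 12.2% against 12.3% for AGCAGCA and 12.8% against 12.2% for AGCUGCC. These are descriptions of long RNA and not of targeting.

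Of 5 reported transcriptional regulators of the hosts, all were tested. Myc, which is reported to act on several microRNA hosts, rose at VILI 6 hours from 1.78 to 2.7 FPKM in control to 3.23, 6.20 and 11.0 FPKM, with a log2 fold change of 1.36 (SE 0.43, adjusted p = 0.14). E2f3 was at 3.86 to 4.19 FPKM in control, 2.24 to 3.40 FPKM at VILI 0 hours, where it fell, and 3.58 to 5.0 FPKM at VILI 6 hours, where it was higher than at 0 hours by 0.60 (SE 0.19). The fall at 0 hours was lost after centring. E2f1, Trp53 and Pax5 were not called in any comparison.

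Within 100 kb of the 3 genes, 18 other genes were in the table and 17 were tested. At VILI 0 hours 2 rose and 2 fell, and at VILI 6 hours 1 rose and 3 fell (2 up and 1 down, and 1 up and 2 down, after centring). Beside these, 6.81% of all genes rose and 9.35% fell at 0 hours, and 8.17% rose and 12.2% fell at 6 hours. With centring, 10.03% rose and 6.36% fell at 0 hours, and 11.7% rose and 8.46% fell at 6 hours. None of the 17 was called at 6 hours by limma at an unadjusted p under 0.05 without control replicate 3 or without VILI 6 hours replicate 2, where 13.3% and 14.5% of all genes were called in either direction. Around Mir22hg, Slc43a2, an amino acid transporter 65017 bases away, rose from 15 ± 2.77 FPKM in control to 29.4 ± 9.10 at 0 hours and 23.6 ± 4.45 at 6 hours (SD, n = 3 each), with adjusted p-values of 0.0999 and 0.173. Tlcd2, which overlaps Mir22hg, fell at 0 hours with a log2 fold change of -0.92 (SE 0.29) and Scarf1, an endothelial scavenger receptor, fell at 6 hours with -0.54 (SE 0.22), or -0.83 (SE 0.13) without VILI 6 hours replicate 1 and -0.32 (SE 0.18), not called, without replicate 3. Serpinf1 was lower at 6 hours than at 0 hours by 0.48 (SE 0.18) on the log2 scale, and Smyd4, Serpinf2, Wdr81, Prpf8 and Rilp were not called. Around Dleu2, Spryd7 rose at 0 hours from 5.69 ± 0.92 to 8.84 ± 1.74 FPKM (SD, n = 3 each), whereas Trim13 and Kcnrg, which overlap Dleu2 on the opposite strand, and the assembled locus XLOC_046998 were not called. Gm27010, inside the Dleu2 span on its strand, was at 6.20 to 7.35 FPKM in control and 4.21 to 6.18 FPKM at VILI 6 hours, a call lost after centring, and the assembled locus XLOC_050419 also fell there, at 0.35 to 0.49 FPKM in control and 0.07 to 0.32 FPKM at 6 hours. Around C430049B03Rik, Phf6 fell at 0 hours with a log2 fold change of -0.35 (SE 0.13), also lost after centring, and Hprt was at 32.2 ± 1.27, 32.6 ± 0.61 and 32.8 ± 3.05 FPKM in the 3 groups (SD, n = 3 each) and was not called. Plac1 was listed at 0 in 8 of the 9 libraries.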

How the data were processed

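The deposited table holds FPKM values per transcript that the authors made by removing low-quality reads, aligning with TopHat2 2.0.9 (Bowtie2 2.0.6), assembling transcripts with Scripture and Cufflinks 2.1.1 and estimating FPKM with Cuffdiff 2.1.1, on GRCm38 per the submitters' processing notes. The library kit and sequencer are given differently in the labels and the methods, and use of strand in counting is not given in the sources used here. Depth cannot be read from FPKM. The study reports read numbers per library, but the FPKM come without counts per row. Precision is therefore seen here only from 3 replicates per group, each 1 mouse in the study.

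The 3 genes and all lists were chosen with earlier results of these data known. Gene IDs were matched without version to GENCODE M21 (23580 of 23713 Ensembl IDs), and rows were summed per gene and numbered in table order within a gene. Log2 fold changes and their standard errors came from moderated linear models of log2(FPKM + 0.1), fitted with limma 3.58.1 under R 4.3.3 with an intensity trend, over the 19378 genes or 37300 rows with a mean of at least 0.1 FPKM, in 1 fit of all 9 libraries with group as the only factor. Fold changes of low genes are understated on this scale. List genes were called at an unadjusted p under 0.05 and after Benjamini-Hochberg adjustment over all genes. Named were the 3 genes and their rows, at most 6 called genes per list and comparison by smallest p, the gene with the largest change where none was called, all genes within 100 kb, Smc4, and the 5 genes most correlated with each of the 3. Drosha, Dicer1, Dgcr8, E2f1, Trp53, Pax5, Hif1a and Mycbp were named outside this rule, after their values were seen. The fit was tested on simulated data. Alternatives were the most abundant row for the sum, each library left out, a block on replicate number, pseudocounts of 0.01 and 1, a mean of at least 1 FPKM or no filter, libraries centred on their median, fits of the 6 libraries of a comparison alone, and moderation with no trend. Sequences came from RefSeq (GRCm38.p6).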

Additional observations from a re-analysis of the deposited data

Results flagged for a closer look

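Ran, the GTPase that drives export of microRNA precursors, lay below control in all VILI 0 hours libraries and above it in all VILI 6 hours libraries, and this opposite movement against control is what singled it out among the related genes and C430049B03Rik, Mir22hg and Dleu2. It was at 25.9 to 27.0 FPKM in control, 24.3, 25.8 and 25.5 FPKM at VILI 0 hours and 35.4, 27.5 and 29.4 FPKM at VILI 6 hours. The gap at 0 hours was narrow, with VILI 0 hours replicate 2 at 25.82 FPKM and control replicate 3 at 25.88 FPKM. Of all genes 21.6% lay lower without overlap at VILI 0 hours, and the share that moved in opposite directions was not counted. Neither movement against control was called by limma, with log2 fold changes of -0.07 (SE 0.11) and 0.20 (SE 0.11) and adjusted p-values of 0.78 and 0.29. The mean at 6 hours was 5.52 FPKM above that at 0 hours, with an adjusted p of 0.43 for the difference, and 3.22 FPKM above it without VILI 6 hours replicate 1, and both comparisons share the control libraries.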

How the results depend on the processing

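For the sums of C430049B03Rik, Mir22hg and Dleu2, 44 of 45 values under a setting that kept all libraries moved by less than 1 SD of the replicates and none changed sign. The exception was row 1 of C430049B03Rik in place of the sum, at -2.81 for VILI 6 hours against control. Among rows, 2 of 132 changed sign, both within 1 SD and near 0, and 1 moved by more than 1 SD, row 2 of C430049B03Rik at VILI 0 hours, to -0.94 with a pseudocount of 1. With each library left out, the log2 fold change against control of C430049B03Rik ran from -1.32 to -1.01 at 0 hours and from -2.39 to -1.10 at 6 hours, that of Mir22hg from 0.02 to 0.64 and from 0.51 to 1.38, and that of Dleu2 from -0.32 to -0.07 and from -0.33 to -0.13. Between the VILI groups it ran from -1.23 to 0.06 for C430049B03Rik, from 0.13 to 1.003 for Mir22hg and from -0.16 to 0.09 for Dleu2, with a change of sign in 3 of 81 values (C430049B03Rik without VILI 6 hours replicate 3, Dleu2 when VILI 0 hours replicate 3 was left out and when VILI 6 hours replicate 2 was), and 17 of 297 row values changed sign. Called genes of the lists numbered 15 to 32 at 0 hours, 12 to 44 at 6 hours and 10 to 21 between the VILI groups with a library left out, and stayed within 1.5 times of 25, 24 and 12 under every other setting. Same-numbered libraries share only a number (correlations of their deviations from -0.22 to 0.02), and with the replicate block 24, 17 and 13 genes were called. Low FPKM values carry no counting error here, and 3 libraries per group limit every value.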
